A study of Mus musculus with 675 samples.

Results

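Actin filaments and class II myosin are the contractile machinery of the vessel wall, and 10 mouse genes for their isoforms and for the kinase that switches them on are described here: Acta2, Actg2, Actb, Actg1, Myh11, Myh9, Myh10, Myl9, Myl6 and Mylk. They were chosen by symbol. Each of the 10 symbols matched 1 Ensembl identifier (GRCm38) among the 46517 in the count table, and the rule itself uses no measured value. The table holds read counts for 675 single cells, each sequenced as its own Smart-seq2 library (a full-length method), from the aorta of male C57BL/6 mice aged 10 weeks; the design statement for the series gives adult males of 8 to 21 weeks. The labels name no genotype and no treatment. Cells were dissociated with a skeletal muscle kit supplemented with collagenase and sorted into 384-well plates. The protocol text names heart although the tissue label is aorta, and no source used here gives the sort gate.

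The cells came from 2 pools of 2 mice, 367 cells in pool A and 308 in pool B. Each pool has its own plate, so mice and plate cannot be told apart, and every test below measures the spread between these 2 pools only. Total counts ran from 52000 to 608582 per cell in pool A (median 279661) and from 51886 to 713700 in pool B (median 299297). Clustering without the 10 genes gave 586 smooth muscle-like cells (310 in pool A, 276 in pool B), 60 fibroblast-like cells (38 and 22) and 29 endothelial-like cells (19 and 10). The 7 smooth muscle markers (Tagln, Cnn1, Lmod1, Synpo2, Smtn, Des and Pln) summed to 9202 and 9141 CPM (counts scaled for the summed total of the class and pool) in the smooth muscle-like cells and to 591 and 937 in the fibroblast-like cells. Of the 29 endothelial-like cells, 21 (14 and 7) kept that name in a coarser clustering and 8 (5 and 3) did not. Those 8 had endothelial markers at a summed 16.9 and 13.9 CPM, with Cdh5, Emcn and Vwf at 0, and smooth muscle markers at 7055 and 5359 CPM. The list of 6 pericyte markers (Rgs5, Kcnj8, Abcc9, Higd1b, Vtn and Cspg4) summed to 6121 and 6676 CPM in them, against 1391 and 1032 in smooth muscle-like cells, and the fibroblast list to 4398 and 988 with Pdgfra at 0. They are given no name here, and the member values of endothelial-like cells are given with and without them.

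Actin polymerises into the filaments that myosin pulls on. Acta2 and Actg2 encode the smooth muscle alpha- and gamma-actins, typical of vascular and of visceral smooth muscle, and Actb and Actg1 the cytoplasmic beta- and gamma-actins of all cells. Myh11 encodes the smooth muscle myosin heavy chain, Myh9 and Myh10 the non-muscle heavy chains IIA and IIB, Myl9 and Myl6 the regulatory and essential light chains, and Mylk the calcium- and calmodulin-dependent kinase whose phosphorylation of the regulatory light chain starts contraction. Many smooth muscle genes are regulated by serum response factor, which binds the CArG box, a short run of A and T between a CC and a GG.

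Promoters are shown for 4 members, since Acta2, Myl9 and Myl6 vary together across cells (below) and Actg1 is a cytoplasmic actin with the same motif. The 250 bases before the annotated start were taken from RefSeq (GRCm38.p6) and are written 5′ to 3′ on the gene's strand. The gene intervals given further below come from a different annotation. The windows shown overlap those intervals, that of Acta2 for the most part and that of Myl6 as a whole. Promoter sequence was available for 7 of the 10 members, and not for Actg2, Actb and Myh11. Actb also varies with Acta2, Myl9 and Myl6 (below), so that block was not examined as a whole. CArG boxes, whose general pattern (though not each sequence) is the same on both strands, and near matches with a single G or C inside the A and T run are in capitals. Acta2 is shown at chr19:34255374-34255623 on the minus strand, with near matches starting 84 and 34 bases before the start.
Acta2: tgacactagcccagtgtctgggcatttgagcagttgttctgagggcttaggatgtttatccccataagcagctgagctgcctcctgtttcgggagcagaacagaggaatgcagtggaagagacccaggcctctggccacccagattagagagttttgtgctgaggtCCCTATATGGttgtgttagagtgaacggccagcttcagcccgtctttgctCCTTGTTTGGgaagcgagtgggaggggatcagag
Myl9 is shown at chr2:156775214-156775463 on the plus strand, with an exact box starting 161 bases and a near match 99 bases before the start.
Myl9: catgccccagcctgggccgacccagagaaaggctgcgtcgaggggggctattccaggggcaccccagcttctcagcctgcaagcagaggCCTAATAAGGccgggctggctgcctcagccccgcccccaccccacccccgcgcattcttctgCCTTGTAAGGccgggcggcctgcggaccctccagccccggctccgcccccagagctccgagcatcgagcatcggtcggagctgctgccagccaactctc
Myl6 is shown at chr10:128493010-128493259 on the minus strand, with an exact box starting 50 bases before the start. The window of its other annotated start (chr10:128493887-128494136), nearer the 5′ end of the gene, had no match.
Myl6: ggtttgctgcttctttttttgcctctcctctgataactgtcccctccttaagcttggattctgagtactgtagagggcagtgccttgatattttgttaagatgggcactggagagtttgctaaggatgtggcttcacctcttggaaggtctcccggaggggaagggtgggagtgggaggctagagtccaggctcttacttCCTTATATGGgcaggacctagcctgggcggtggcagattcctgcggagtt
Actg1 is shown at chr11:120348496-120348745 on the minus strand, with an exact box starting 90 bases before the start.
Actg1: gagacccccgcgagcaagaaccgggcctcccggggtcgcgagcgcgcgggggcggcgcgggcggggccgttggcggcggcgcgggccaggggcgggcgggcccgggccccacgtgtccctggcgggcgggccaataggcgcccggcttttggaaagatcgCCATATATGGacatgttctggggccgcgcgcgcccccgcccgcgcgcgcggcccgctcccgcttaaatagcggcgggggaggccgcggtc
No match was found in the windows of Myh9, Myh10 and Mylk, which says only that these letters are not in those windows. Across all 32851 promoters of the same length, 1.47% held an exact box, 7.24% a near match and 0.548% at least 2 near matches. A match is a description of the sequence and not evidence of binding.

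In smooth muscle-like cells the regulatory light chain and alpha-actin stood at the top of the set. Levels were compared between genes as CPM per kilobase of the principal transcript. Myl9 (chr2:156775420-156781658, plus strand) was at 3473 in pool A and 3122 in pool B, ranks 3 and 5 of 23992 and 23419 genes with any count. Acta2 (chr19:34241090-34255590, minus strand) was at 3259 and 2808, ranks 5 and 7. Myl9 was the higher within each pool, while the ranges of the 2 genes over both pools overlapped.

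Actb (chr5:142903115-142906754, minus strand) followed at 2315 and 1868 CPM per kilobase, and Myl6 (chr10:128490860-128494145, minus strand) at 1874 and 1772. Their ranges over both pools touched as well, with Actb the higher within each pool. Next came Actg1 (chr11:120345690-120348542, minus strand) at 793 and 681, Actg2 (chr6:83512905-83536265, minus strand) at 645 and 740, and Myh11 (chr16:14194535-14291372, minus strand) at 657 and 515. Actg1 was above Myh11 without overlap, whereas the range of Actg2 overlapped both. Mylk (chr16:34745210-35002420, plus strand) was clearly apart below them, at 249.998 and 220 CPM per kilobase. The non-muscle heavy chains closed the order, with Myh10 (chr11:68691559-68816632, plus strand) at 72.0 and 42.0 and Myh9 (chr15:77760587-77842175, minus strand) at 8.88 and 6.63. The place of Myl6 depended on the length used: per kilobase of all its exons together (3187 bases, against 665 for the principal transcript) it fell to 391 and 370.

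**Figure D1:**
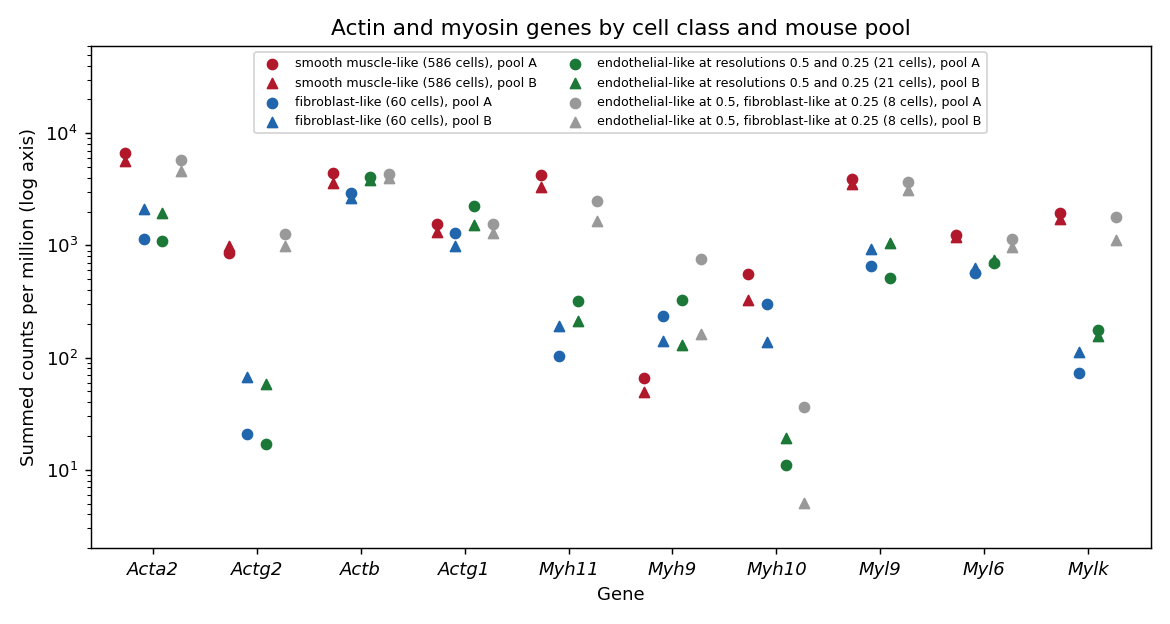
Level of each member (CPM, log axis) in the summed cells of each class and pool; points are the 2 pools. Endothelial stands for the 21 cells named so in both clusterings and the last group for the 8 reassigned cells. Acta2, Actg2, Myh11, Myl9 and Mylk stand highest in the smooth muscle-like cells in both pools, apart from Actg2 in the reassigned cells, while Actb stays between 2648 and 4444 CPM in every class.

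The 4 actins were measured in the same cells, so their counts can be read as a composition. Alpha-actin (Acta2) gave 49.2% of actin counts in the smooth muscle-like cells of both pools, Actb 33.0% and 30.9%, Actg1 11.5% and 11.4%, and Actg2 6.38% and 8.50%. The smooth muscle forms Acta2 and Actg2 together made up 55.6% and 57.7% (mean 56.6%, SD 1.501, n = 2 pools). In fibroblast-like cells they made up 21.6% and 37.4% (29.5%, SD 11.2). In the endothelial-like cells they made up 30.7% and 39.3% (35.0%, SD 6.096), or 14.96% and 27.2% in the 21 cells kept in both clusterings. The smooth muscle-like range did not overlap the others. The 8 reassigned cells, at 54.5% and 51.7%, lay just under it. With 2 pools a class, the design allows no exact test with a p under 0.05, so these shares are given as values.

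Among the class II heavy chains Myh11 dominated the smooth muscle-like cells, with 87.1% and 89.8% of their summed counts (mean 88.5%, SD 1.92, n = 2 pools). Myh10 gave 11.5% and 8.84% and Myh9 1.36% and 1.33%. Fibroblast-like cells divided their heavy chain counts among all 3, with Myh11 at 16.1% and 40.8%, Myh9 at 36.5% and 29.9% and Myh10 at 47.4% and 29.3%. The 21 endothelial-like cells had almost no Myh10 (1.67% and 5.32%), with Myh11 at 48.5% and 58.6% and Myh9 at 49.8% and 36.1%. In pool A 1 of the 14 cells gave 78.5% of the Myh11 counts, and without it the shares were 20.04% for Myh11 and 77.1% for Myh9. With the 8 reassigned cells included, the endothelial-like share of Myh11 was 66.5% and 83.4%. These are shares of reads, so a longer transcript gives more reads for the same number of molecules.

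**Figure D2:**
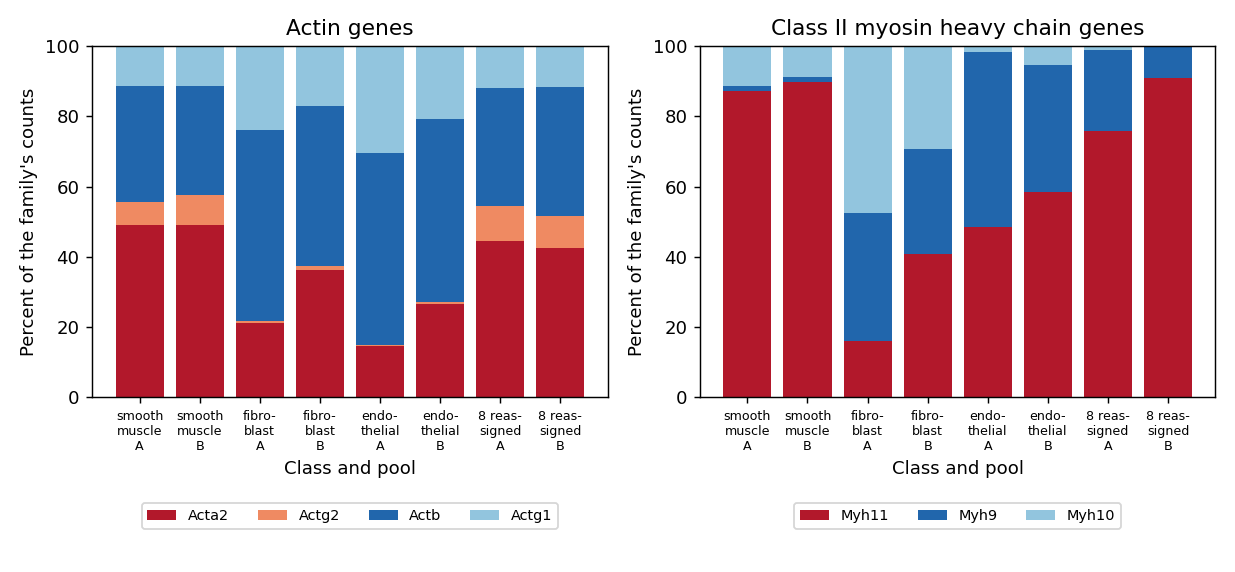
Share of actin counts (left) and of class II myosin heavy chain counts (right) given by each isoform, in percent, stacked for each class and pool. The bars of the smooth muscle-like cells are nearly alike in the 2 pools, with the smooth muscle actins at 55.6% and 57.7% and Myh11 at 87.1% and 89.8%. In the smooth muscle actins and Myh11, the 8 reassigned cells resemble them more than they resemble the 21 endothelial cells. Their Myh10 share (1.10% and 0.278%) is nearer to that of the 21 cells (1.67% and 5.32%), and their Myh9 share (23.0% and 8.88%) lies between the 2 groups.

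The isoform order also held cell by cell. Per kilobase, Acta2 exceeded Actb in 299 of 310 smooth muscle-like cells of pool A (96.5%, exact 95% interval 93.7 to 98.2) and in 273 of 276 of pool B (98.9%, 96.9 to 99.8). In fibroblast-like cells it did so in 5 of 38 (13.2%, 4.41 to 28.1) and 10 of 22 (45.5%, 24.4 to 67.8), and in endothelial-like cells in 6 of 19 and 2 of 10 (2 of 14 and 0 of 7 of the 21 cells). Acta2 exceeded Actg2 in all 675 cells, fibroblast- and endothelial-like cells included. Myl9 exceeded Myl6 in 304 of 310 and 272 of 276 smooth muscle-like cells, against 8 of 38 and 9 of 22 fibroblast-like cells.

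For the heavy chains, Myh11 exceeded Myh10 per kilobase in 307 of 310 and 276 of 276 smooth muscle-like cells. Myh10 in turn exceeded Myh9 in 286 of 310 (92.3%, 88.7 to 94.98) and 247 of 276 (89.5%, 85.3 to 92.8). In endothelial-like cells Myh10 exceeded Myh9 in only 2 of 19 and 2 of 10 (2 of 14 and 2 of 7 of the 21 cells). The intervals treat each cell of a pool as an independent draw, although these cells share mice and plate. They do not measure the spread between pools.

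Smooth muscle-like against fibroblast-like cells was the first class comparison. Myh11, Actg2, Mylk, Myl9 and Acta2 were higher in smooth muscle-like cells and Myh9 was lower, 6 of the 10 members; no difference was called for Actb, Actg1, Myl6 and Myh10. All 10 passed the filter on low counts. Over the 17140 genes tested, edgeR's quasi-likelihood test with the pool as a block called 5.38%, with 2.42% on the smooth muscle-like side and 2.96% on the other (Benjamini-Hochberg adjusted p under 0.05), and the median log2 fold change of all tested genes was 0.33. Over the genes left out of the clustering, as the members were, the share was 5.2%. Median totals per cell differed between the classes, at 291756 and 315446 counts in smooth muscle-like and 154446 and 146064 in fibroblast-like cells.

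Smooth muscle-like cells held Acta2 at 6631 CPM (pool A) and 5714 CPM (pool B), against 1142 and 2108 in fibroblast-like cells. The groups did not overlap, and the log2 fold change was 1.89 (SE 0.30, adjusted p = 0.0109, edgeR; 2.55 in pool A and 1.52 in pool B). Without the pool block its adjusted p was 0.0742, which ends the call. Actg2 was at 860 and 987 CPM against 21.0 and 66.5, the widest actin difference, with a log2 fold change of 4.51 (SE 0.43, edgeR adjusted p = 0.00120; 5.36 and 3.97 within pools). Both smooth muscle actins were thus higher in each pool.

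The cytoplasmic actins lay closer together in these classes, though their pool values did not overlap. Actb was at 4444 and 3586 CPM against 2930 and 2648, higher in both pools without a call (log2 fold change 0.42, SE 0.18, edgeR adjusted p = 0.274). Actg1 was at 1547 and 1329 against 1285 and 993 (log2 fold change 0.24, SE 0.19, edgeR adjusted p = 0.569). Both fold changes lay near the 0.33 of the median tested gene.

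Smooth muscle-like cells held Myh11 at 4240 and 3322 CPM, against 103 and 192 for fibroblast-like cells. Its log2 fold change of 4.64 (SE 0.37, edgeR adjusted p = 0.000572; 5.37 and 4.19 within pools) was the largest of the 10. Myh10 was at 561 and 327 against 304 and 138, higher within each pool although the pooled ranges lay close together (log2 fold change 0.96, SE 0.25, edgeR adjusted p = 0.0823). Myh9 was the only member lower in smooth muscle-like cells, at 66.0 and 49.3 against 234 and 140 (log2 fold change -1.77, SE 0.34, edgeR adjusted p = 0.0250). That call was the least stable: 1 cell gave 32.2% of the fibroblast-like Myh9 counts of pool B, the adjusted p was 0.0762 without the block, and among cells of 100000 to 200000 counts the fold change was 0.30 (adjusted p = 0.950). That depth window was chosen after seeing the data; in it the 5 higher members were again called, with log2 fold changes from 1.96 (Acta2) to 4.33 (Myh11).

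Myl9 was at 3918 and 3521 CPM against 651 and 920 (log2 fold change 2.16, SE 0.24, edgeR adjusted p = 0.00230), with no overlap. Myl6 was at 1246 and 1178 against 573 and 635, also with no overlap, and missed the threshold (log2 fold change 0.90, SE 0.21, edgeR adjusted p = 0.0614). The kinase gene Mylk was at 1956 and 1718 against 72.2 and 111 (log2 fold change 4.25, SE 0.30, edgeR adjusted p = 0.000384).

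The members that were low in fibroblast-like cells were not at 0 there, and smooth muscle markers outside the set were present beside them. As a percentage of the smooth muscle-like level, fibroblast-like cells held 17.2% and 36.9% for Acta2, 16.6% and 26.1% for Myl9, 2.43% and 5.78% for Myh11, 3.69% and 6.49% for Mylk and 2.44% and 6.74% for Actg2. For Tagln it was 7.91% and 12.7%, and for Cnn1 3.32% and 8.97%. Of the 7 smooth muscle markers, 5 and 6 reached 10 CPM in fibroblast-like cells. The fibroblast marker list, at 17526 and 16200 CPM there, summed to 1158 and 1246 CPM in smooth muscle-like cells, where 4 of 7 reached 10 CPM. The part of RNA shared between wells or of mixed wells in these levels was not tested, and fewer expressing cells and less RNA per cell are told apart only by the values per cell above.

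**Figure D3:**
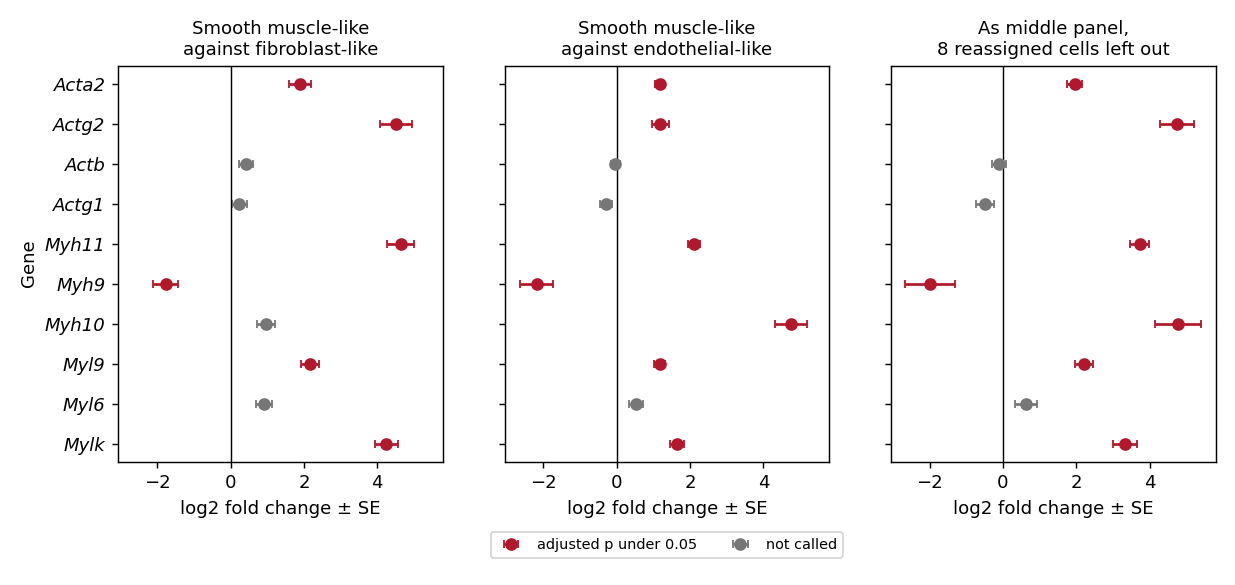
Log2 fold change of each member between classes, with its standard error as the bar. A further panel leaves out the reassigned cells. Smooth muscle-like cells exceed both other classes for Acta2, Actg2, Myh11, Myl9 and Mylk, whereas Myh10 is far higher than in endothelial-like cells (4.75) but not called against fibroblast-like cells (0.96).

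Smooth muscle-like against endothelial-like cells asked the same of the second class, and it used the same smooth muscle-like cells, so the 2 comparisons are not independent. Of the 10 members, Acta2, Actg2, Myh11, Myh10, Myl9 and Mylk were higher and Myh9 was lower. Over 16972 genes edgeR called 5.54%, 2.24% with the smooth muscle-like level higher and 3.3% with it lower, and the median log2 fold change was 0.58 (5.21% of the genes left out of the clustering). Among the 21 cells kept in both clusterings the same 7 members passed the threshold, beside 6.79% of 16679 genes (3.12% higher and 3.67% lower; median 0.80). That second fit put 1 spread on all genes, so its calls carry no error of the gene itself, and only its fold changes are given below. Comparison with those 21 cells was added after seeing the data.

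Myh10 separated these classes most. All 29 endothelial-like cells together held 18.1 and 13.6 CPM, against 561 and 327 for smooth muscle-like cells, a log2 fold change of 4.75 (SE 0.43, edgeR adjusted p = 9.62e-07), and 4.77 against the 21. After thinning every cell to 50000 counts, Myh10 was seen in 97.1% and 93.8% of smooth muscle-like cells but in 42.9% and 42.9% of the 21 endothelial-like cells (6 of 14 and 3 of 7); without thinning it was seen in 98.4% and 98.6% against 85.7% and 71.4%. Myh9 went the other way, at 66.0 and 49.3 CPM against 448 and 143 in the 29 cells and 330 and 130 in the 21 (log2 fold changes -2.18, edgeR adjusted p = 0.00549, and -1.99; -2.65 and -1.45 within pools), and its adjusted p was 0.150 without the block and 0.0883 at a finer clustering. In the 21 cells the endothelial list summed to 8246 and 5884 CPM and the fibroblast list to 47.4 and 105. The smooth muscle list summed to 712 and 1150 CPM in these cells (6 of 7 markers at 10 CPM in each pool) and the pericyte list to 565 and 2687. The part of these RNAs in the member values was not tested.

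The smooth muscle members differed far more once the 8 reassigned cells were out. Myh11 was at 926 and 787 CPM in the 29 cells and at 321 and 212 in the 21, so its log2 fold change rose from 2.11 (SE 0.15, edgeR adjusted p = 6.18e-08) to 3.73. A single cell of pool A held 776 of the 989 Myh11 counts of its 14 cells; without it the level was 79.2 CPM. The same cell held most Acta2, Myl9 and Mylk there, and their levels without it were 787, 235 and 101 CPM. In pool B Mylk was at 91.3 CPM without its highest cell. Among the 29 cells the Myh11 level of pool B was 375 CPM without its highest cell. Omission of the highest cell was added after seeing the data.

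Actg2 was at 366 and 428 CPM in the 29 cells and at 16.9 and 58.5 in the 21, with fold changes of 1.19 (SE 0.24, edgeR adjusted p = 0.00349) and 4.75 on the log2 scale. In the 8 reassigned cells themselves Actg2 was at 1277 and 988 CPM, of which 1 cell gave 69.1% in pool A and 65.0% in pool B. Without that cell of each pool Actg2 was at 591 and 534 CPM, under the smooth muscle-like values, and in the 29 cells at 134 and 201 CPM.

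Mylk was at 623 and 538 CPM in the 29 cells and 177 and 156 in the 21 (log2 fold changes 1.63, SE 0.19, edgeR adjusted p = 1.41e-05, and 3.34). Acta2 was at 2382 and 3015 and then at 1097 and 1940 (1.17, SE 0.13, edgeR adjusted p = 9.72e-06, and 1.95), and Myl9 at 1390 and 1873 and then at 513 and 1052 (1.17, SE 0.16, edgeR adjusted p = 5.66e-05, and 2.22). With DESeq2 the adjusted p against the 29 cells was 0.0968 for Acta2, 0.105 for Actg2 and 0.0996 for Myl9, and without the block it was 0.0580, 0.0849 and 0.0730. The calls of those 3 genes therefore rest on the fit used, and Myh11, Myh10 and Mylk were called in all 3 fits.

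Actb, Actg1 and Myl6 were not called. Actb was at 4134 and 3890 CPM in the 29 endothelial-like cells, inside the smooth muscle-like range of 3586 to 4444 (log2 fold change -0.04, SE 0.12, edgeR adjusted p = 0.932). Actg1 was at 2069 and 1423 (-0.29, SE 0.17, edgeR adjusted p = 0.411), and Myl6 at 820 and 832 (0.52, SE 0.20, edgeR adjusted p = 0.191). In the 21 cells Actb was at 4066 and 3824 CPM, Actg1 at 2265 and 1518 and Myl6 at 694 and 746 (log2 fold changes -0.11, -0.49 and 0.63). Endothelial-like cells thus held Actb and Actg1 at levels within or above the smooth muscle-like range.

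Fibroblast-like against endothelial-like cells, the third pair, separated mainly by Myh10. It was at 304 and 138 CPM in fibroblast-like cells against 18.1 and 13.6 (log2 fold change 3.84, SE 0.65, edgeR adjusted p = 0.0308) and was again called against the 21 cells (3.91). Mylk, Myh11 and Actg2 were called lower in fibroblast-like cells against the 29 cells, with log2 fold changes of -2.56, -2.47 and -3.27. Those 4 calls of 10 stood beside 3.53% of 11866 genes called (1.81% higher, 1.72% lower; 3.46% of the genes left out of the clustering). Against the 21 cells none of the 3 was called (-0.80, -0.80 and 0.34), with 5.87% of 11396 genes called (3.17% higher, 2.7% lower), so these 3 differences went with the 8 reassigned cells.

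Within the smooth muscle-like class a second clustering, again without the members, gave subclusters of 195, 141, 129, 93 and 28 cells. They were uneven between pools: 171 of the 195 cells of the first came from pool A and 114 of the 129 cells of the third from pool B. The first was led by platelet genes (Itga2b, Gp9), the second by mast cell genes (Tpsb2, Cpa3), the third by Tnnt2 and Myh6, the fourth by Per1 and Akna, and the smallest by Gm21861 and Lum. The platelet list summed to 59.9 CPM in the smooth muscle-like cells of pool A and 2.53 in pool B, and the mast cell list to 60.0 and 3.76. Their part in the subclusters was not tested.

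None of the 10 members was called between the 2 largest subclusters, and 0.0% of 14882 genes was called by edgeR (468 had an unadjusted p under 0.05; DESeq2 called 35 genes and no member). Acta2 was at 7149 and 7149 CPM in the first and 6242 and 5703 in the second (log2 fold change -0.31, SE 0.09). Myl9, Myh11, Myl6 and Actb had fold changes between -0.32 and -0.26 on the log2 scale, lower in both pools, with an edgeR adjusted p of 0.999961 for each. A pool supplied as few as 24 cells to the first subcluster, which limits this comparison.

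Among the members with a lower quartile above 0, single cells differed most in Actg2. The ratio of its upper to its lower quartile (in CPM) over smooth muscle-like cells was 11.5 (pool A) and 8.12 (pool B). For Myh10 that ratio was 2.83 and 4.31 and for Mylk 1.60 and 2.07. For Myh9 the lower quartile was 0 in both pools, so it has no such ratio. Acta2, Myl9, Myl6 and Actb had the smallest ratios, 1.28 to 1.36; their counts did not keep pace with the depth of the cell (below), so these ratios do not show that their RNA varied least. Actg2 was under 100 CPM in 76 of 310 (24.5%) and 60 of 276 (21.7%) cells, and it reached 100 CPM in 142 of 195, 113 of 141, 90 of 129, 84 of 93 and 21 of 28 cells of the 5 subclusters. Low and high cells were therefore found in every subcluster. Among fibroblast-like cells 0 of 38 and 5 of 22 reached that level, and none of the 21 endothelial-like cells did.

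Acta2 was detected everywhere, with at least 84 counts in each of the 675 cells. Over smooth muscle-like cells it ranged from 781 to 22524 CPM in pool A and from 898 to 12717 in pool B. Myh9 was the opposite, with 0 counts in 88 and 87 smooth muscle-like cells and less than 100 CPM in 245 and 221. After thinning to 50000 counts Myh9 was seen in 49.7% and 47.5% of smooth muscle-like cells, 60.5% and 54.5% of fibroblast-like and 84.2% and 70.0% of endothelial-like cells (78.6% and 71.4% of the 21).

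The counts of the most abundant members did not keep pace with the depth of the cell. Over smooth muscle-like cells, the slope of log count on log total was 0.71 for Acta2, 0.74 for Actb, 0.77 for Myl6 and 0.83 for Myl9, where 1 means in proportion. It was 1.002 for Actg1, 1.19 for Myh10, 1.30 for Myh11, 1.39 for Mylk and 1.60 for Actg2. From the shallowest to the deepest of 4 equal groups of cells (median totals 197870 and 418931) the median Acta2 count went from 1651 to 2169, while its CPM fell from 8340 to 5043. For Myh9, over the 411 cells with a count, the slope was 0.21. Those 4 abundant members were also the ones with at least 0.5 counts per base of transcript in the median cell (Myl9 1.06, Acta2 0.99, Actb 0.67, Myl6 0.58). The ranks, shares and fold changes given above for these 4 genes rest on such counts.

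The slope was also taken over all genes with a count in every smooth muscle-like cell, members included. The median slope was 0.61 over the 21 genes with at least 0.5 counts per base, which include Acta2, Actb, Myl6 and Myl9. It was 1.26 over the 121 genes at 0.1 to 0.5 and 1.22 over the 79 genes below. No source used here gives the handling of duplicate reads, and its part in these slopes was not tested. Fibroblast-like cells had the lower totals, and for Acta2 and Myl9 a lower total went with a higher CPM within smooth muscle-like cells.

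**Figure D4:**
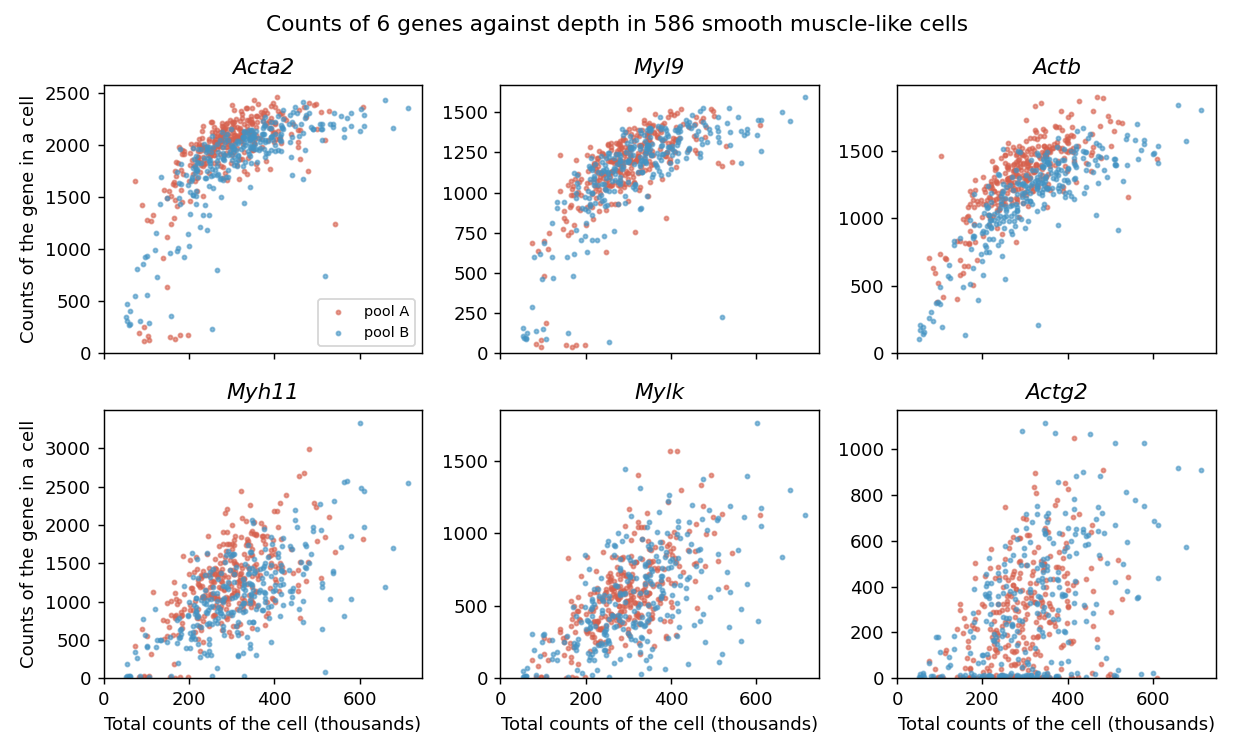
Count of 6 members against the total count of the cell for each smooth muscle-like cell, on linear axes and coloured by pool. Acta2, Myl9 and Actb flatten as the total grows (slopes of log count on log total 0.71, 0.83 and 0.74). Myh11, Mylk and Actg2 rise faster than the total (1.30, 1.39 and 1.60), and Actg2 spreads the widest relative to its level.

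Across smooth muscle-like cells (310 and 276, thinned to 50000 counts) a block of abundant members rose and fell together. The Spearman rho, as the mean of the 2 pools, was 0.83 for Acta2 with Myl9, 0.77 for Myl9 with Myl6, 0.75 for Acta2 with Myl6, 0.73 for Acta2 with Actb and 0.72 for Actb with Myl9. The median of the 45 pairs was 0.088. Cells of a pool share mice, plate and library preparation, and these 4 genes also followed the total count of the cell even after thinning, with rho from -0.738 to -0.558. Given the total count, the rho fell to 0.68 for Acta2 with Myl9 and 0.51 for Acta2 with Actb. This partial correlation was added after seeing the data.

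Myh11 and Mylk had a rho of 0.38 (0.27 in pool A and 0.49 in pool B) that was 0.39 given the total count. Myh11 was not apart from the block, with a rho of 0.34 with Myl9, 0.31 with Myl6, 0.30 with Acta2 and 0.17 with Actb. In pool A its rho with Acta2 (0.42), Myl9 (0.40) and Myl6 (0.38) was above that with Mylk. Actb and Actg1 had a rho of 0.35. Actg2 and Acta2, both smooth muscle actins, had a rho of 0.04, which was 0.18 given the total count. Without regard to the total count, Actg2 and Myh9 had the lowest rho, at -0.14.

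**Figure D5:**
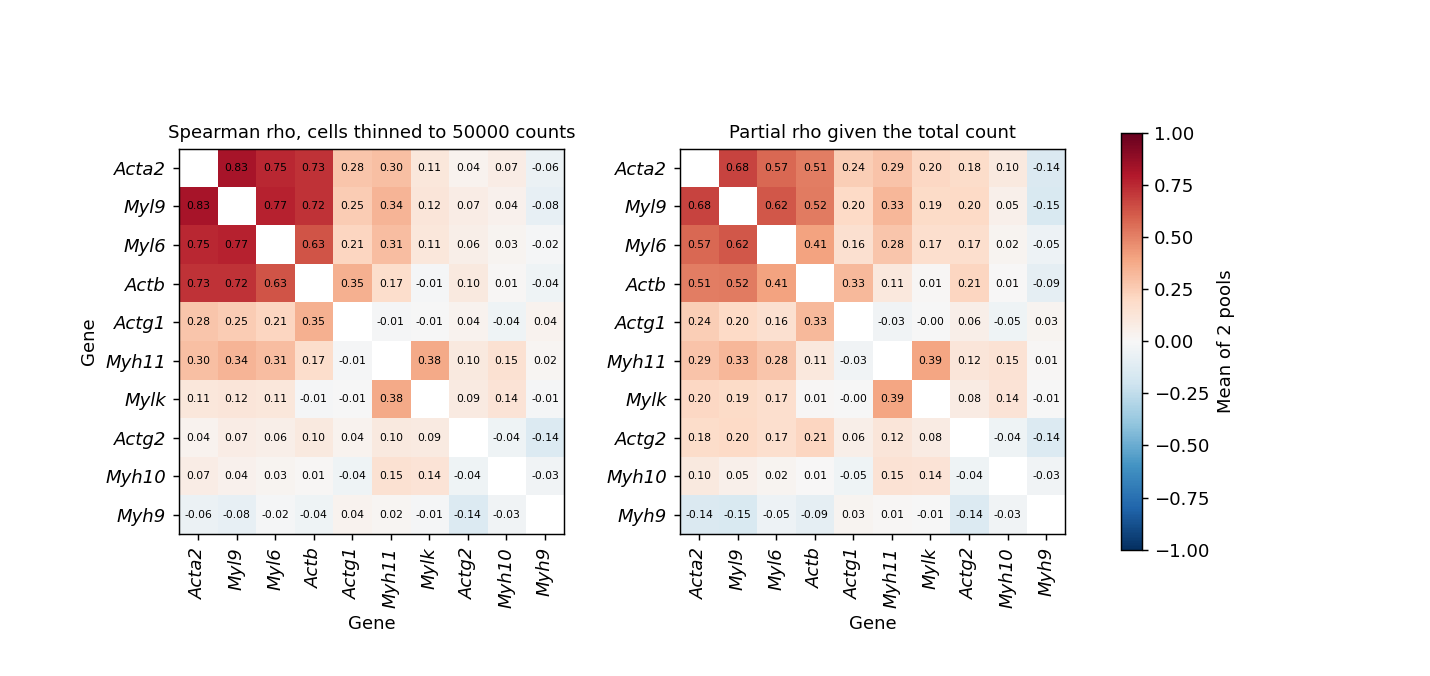
Spearman rho between members over smooth muscle-like cells, as the mean of the 2 pools, after thinning to 50000 counts (left) and given the total count of the cell (right). The block of Acta2, Myl9, Myl6 and Actb stands out in both panels, from 0.83 to 0.63 on the left and from 0.68 to 0.41 on the right.

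Among 3708 genes compared, those most like each member over the same cells were named by the same rho. Acta2 was closest to Myl9 (0.83), Tpm2 (0.77), which encodes a tropomyosin, and Myl6 (0.75). Myh11 was closest to Flna (0.55), the actin crosslinker filamin A, then Tns1 (0.42) and Synpo2 (0.38). Mylk was closest to Myh11 (0.38) and Lmod1 (0.34), the smooth muscle leiomodin. Actg2 had no close partner, with Ckb, the brain-type creatine kinase, at 0.31 first. For Actg1 the first was Gm23419 (0.46), which lies within Actg1 on the same strand, so their reads cannot be told apart. The highest for Myh10 was Pcdh7 (0.23) and for Myh9 Malat1 (0.16).

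Some reads of 3 members could also come from other transcripts. Of the 50-base windows of the principal transcript, 56.7% were found in another annotated transcript for Actg1, 53.2% for Myl6 and 14.2% for Actb, against at most 4.28% for the other 7. No source used here says how reads with several matches were counted, so the levels of Actg1 and Myl6 in particular are uncertain.

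The wider pathway was followed through 5 gene lists. Of 22 genes for light chain phosphorylation, all tested, 6 were higher and 2 lower in smooth muscle-like than in fibroblast-like cells (median log2 fold change 0.80, against 0.33 over all tested genes, of which 2.42% were called higher and 2.96% lower). Mylk4, a kinase related to Mylk, was at 274 and 146 CPM against 4.11 and 7.00 (log2 fold change 5.13, edgeR adjusted p = 0.00230). Ppp1r14a, the inhibitor CPI-17 of myosin phosphatase, was at 444 and 604 against 26.4 and 78.5 (3.40, edgeR adjusted p = 0.00219). Ppp1r12a, the phosphatase's targeting subunit, was at 554 and 440 against 52.3 and 82.6 (2.81, edgeR adjusted p = 0.00375). These genes for a kinase, a phosphatase inhibitor and a phosphatase subunit were higher, but not every gene of the list went that way. The death-associated kinase gene Dapk1 was lower, at 9.72 and 4.54 against 167 and 86.1 (-4.27, edgeR adjusted p = 0.00235). Ppp1r14b, a gene related to Ppp1r14a, was also lower, at 19.2 and 16.1 against 119 and 57.2 (-2.34, edgeR adjusted p = 0.0497).

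Against endothelial-like cells 6 of 21 genes tested from that list were higher and none lower (median 1.36, against 0.58 over all tested genes, of which 2.24% were called higher and 3.3% lower), led by Mylk4 (4.91, edgeR adjusted p = 0.000117), Ppp1r12a (2.01, 0.00748) and Ppp1r12b (1.89, 0.000617) on the log2 scale. No gene of the list was called between fibroblast-like and all endothelial-like cells.

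Of 41 tested genes for actin filament assembly and turnover, 8 were higher and 4 lower than in fibroblast-like cells (median 0.43, against 0.33 over all tested genes). Against endothelial-like cells 5 were higher and 1 lower, and both counts stand beside the same shares over all tested genes. The median there was 0.09, under the 0.58 of all tested genes (-0.04 against 0.80 with the 21 cells). Dstn, which encodes the filament-severing destrin, was higher in both comparisons, at 2962 and 2830 CPM against 590 and 617 in fibroblast-like cells and 524 and 681 in endothelial-like cells (log2 fold changes 2.16, edgeR adjusted p = 0.00108, and 2.25, edgeR adjusted p = 1.64e-07; 2.79 against the 21 cells). Enah, an elongation factor of the Ena/VASP family, was also higher in both (2.95 and 2.37). Gelsolin (Gsn), which severs and caps filaments, was at 1020 and 1105 CPM against 6891 and 7422 in fibroblast-like cells (-2.85, edgeR adjusted p = 0.000279), and the monomer-binding Tmsb10 at 65.0 and 101 against 391 and 491 (-2.54, edgeR adjusted p = 0.00188). The slingshot phosphatase gene Ssh2 was lower than in endothelial-like cells (-3.94, edgeR adjusted p = 4.05e-06; -4.59 against the 21 cells).

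The remaining lists held few calls, to be read beside the same shares. Of 11 other conventional myosin chains tested (of 21), only Myl12b, a non-muscle regulatory light chain, was called against fibroblast-like cells, at 151 and 140 CPM against 437 and 425 (-1.67, edgeR adjusted p = 0.0100). Against endothelial-like cells it was lower too (-1.35, edgeR adjusted p = 0.0288), with its relative Myl12a (-0.91, edgeR adjusted p = 0.0248). Of 11 unconventional myosins, Myo1e (4.69) and Myo1c (1.39) were higher than in fibroblast-like cells, and Myo7a (-6.06) and Myo10 (-3.06) were lower than in endothelial-like cells. None of the 7 other actins and actin-related proteins tested was called in either comparison.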

How the data were processed

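Read counts per gene were deposited by the authors for 675 single cells. Per the submitters' processing notes, bcl2fastq, Bowtie, Bowtie2, Subread and featureCounts were used with GRCm38 (mm10); versions, strand and the handling of duplicates and of reads with several matches are given in no source used here. The deposited counts are whole numbers, not normalized, without molecular identifiers. The 10 genes and the pathway lists were chosen with earlier results of these data known. Counts of 512 identifiers without a symbol made up 0.217% of the total. A minimum of 1000 genes and 20000 counts removed 0 cells; no doublet caller was run.

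Cells were clustered with scanpy 1.11.5 and leidenalg 0.10.2 (counts per cell scaled and logged, 2000 variable genes, 20 components, 15 neighbours, resolution 0.5, seed 0) on the marker genes and a fixed part of the other genes, picked by a hash of the symbol, without the 10 genes, the pathway lists and mitochondrial genes. A cluster took the type with the highest mean log2(CPM + 10) among types with at least 3 markers at 100 CPM; this naming rule was changed after the data were seen. The clusters and the tests use the same cells. Counts were summed per pool and class (at least 5 cells a pool, 15 for subclusters) and tested with edgeR 4.0.16 (limma 3.58.1, R 4.3.3): TMM scaling, filterByExpr, quasi-likelihood F test with the pool as a block, Benjamini-Hochberg adjusted p under 0.05 over all genes tested. Each fit has 1 residual degree of freedom, so the error of a gene borrows from all genes. DESeq2 1.42.0 and other settings were alternatives. The pool is a block because mice and plate are common to all classes of a pool; the deviations of the classes between pools correlated over 3669 genes, with r = 0.263 (smooth muscle-like and fibroblast-like), 0.300 (smooth muscle-like and endothelial-like) and 0.114 (fibroblast-like and endothelial-like). Python 3.11.15, numpy 2.4.6, pandas 2.3.3, scipy 1.17.1 and matplotlib 3.10.9 were used. The edgeR fit was also tried on simulated sums, with means taken from the smooth muscle-like and fibroblast-like sums.

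Named genes were the 10 members, the 3 genes most like each by rho, and per list and comparison the 3 called genes with the largest fold change each way that reached 10 CPM in both pools of the higher class. A gene that this rule names is not reported here. Intervals printed for fractions of cells are exact (Clopper-Pearson) 95% intervals. Shares of counts carry no interval.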

Additional observations from a re-analysis of the deposited data

Results flagged for a closer look

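For 4 results the fold changes had opposite signs in the 2 pools, and the difference between pools was not tested. For Actb in smooth muscle-like against endothelial-like cells the log2 fold change was 0.22 (pool A) and -0.027 (pool B). For Myh9 in fibroblast-like against endothelial-like cells they were -0.81 and 0.11. Between the second and the first smooth muscle-like subcluster Actg2 was at -0.043 and 0.40 and Mylk at -0.13 and 0.21. None of these 4 differences was called in the fits over both pools.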

How the results depend on the processing

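Of the member fold changes recomputed under alternatives, 403 kept direction and call, 11 gained a call, 19 lost it and 17 changed sign. The cause was not tested for any of them. With no replicate block, the members called against endothelial-like cells fell from 7 to 3, and the genes called were 590 (from 922) against fibroblast-like and 315 (from 941) against endothelial-like cells. DESeq2 called 2420, 2040 and 1536 genes in the 3 class comparisons and 35 between subclusters, with 4 members against endothelial-like cells. Against fibroblast-like cells 1489 genes were called after thinning and 368 among cells of 100000 to 200000 counts, where Myh9 was at 0.30; Myl6 was called with no filter on low counts, at resolution 0.25, after thinning and without the smallest subcluster. Against endothelial-like cells Actb was at 0.095 with no filter, 0.16 at resolution 1.0 and 0.023 in cells with at least 100000 counts.

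Fibroblast-like against endothelial-like cells depended on the clustering. Members called were 0 at resolution 0.25, 0 at resolution 1.0 and 1 with cells of the same name in both clusterings; genes called were 946 with no filter and 669 with those cells. At resolution 0.25 the sign turned for Acta2 (0.56), Actg2 (2.75), Myh11 (0.76), Myl9 (0.68) and Mylk (0.87), and with cells of the same name for Acta2 (0.18), Actg2 (0.34) and Myl9 (0.17). Between subclusters 9 genes were called with no filter, 1 at resolution 0.25 and 2 among cells of 100000 to 200000 counts; the sign turned for Actg2 (-0.14) and Mylk (-0.22) at resolution 0.25, for Mylk after thinning (-0.0076), and for Mylk (-0.091) and Myh10 (0.14) in that depth window.

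The smooth muscle actin share was 62.6% per exonic kilobase in smooth muscle-like cells; in endothelial-like cells it was 22.2% as a median over cells and 21.1% at resolution 0.25 or with cells of the same name. The Myh11 share was 91.5% per exonic kilobase in smooth muscle-like cells, 55.0% in fibroblast-like cells at resolution 0.25, and 53.5% in endothelial-like cells at resolution 0.25 or with cells of the same name. The median rho of the 45 pairs was 0.0685 in cells with at least 100000 counts, 0.137 given the total count and 0.211 as Pearson's r, and without either replicate 0.0738 to 0.0906. The depth window, the cells of the same name, the omission of the smallest subcluster, the omission of the highest cell and the partial correlation were chosen after seeing the data. The depth window was not run for endothelial-like cells, subclusters at resolution 1.0 gave no value, and without a replicate 1 sum per class is left, so no test could be made. With 2 pools, 22 and 10 cells in the smaller classes of pool B limit the fibroblast-like and endothelial-like values.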

Other observations

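A few smooth muscle-like cells had little of the contractile set. Acta2 was under 2000 CPM in 7 of 310 cells of pool A and 2 of 276 of pool B. All 7 and 2 of these cells also had Myh11 under 1000 CPM, and 5 and 2 had Myl9 under 1000 CPM. Their median total counts were 154941 and 386444, against 293437 and 315446 in the other smooth muscle-like cells. In the coarser clustering 1 cell of each pool took another class. The cells were picked by their Acta2 level, so these values describe them only.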
